A study of Mus musculus with 34 samples.

Results

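Serpins are a superfamily of proteins that mostly block serine proteases, and the mouse liver secretes many of them into plasma. The family was taken from the non-control probes whose gene name on the array begins with Serpin. Of these, 75 probes of 58 genes were analysed, and 46 probes of 34 genes passed the filter, which asked that in 1 group or more all arrays carried the scanner software's flag for a signal well above background. These 46 probes, among 31037 that passed the same filter, are the members described below. Of them, 42 were above background on all 34 arrays. The other 4, which passed through some groups only, are the probes of Serpina5, Serpina7 and Serpinb9f and a second Serpina3i probe. The remaining 29 probes failed the filter, and they leave 24 genes unmeasured here, most of them clade B genes such as Serpinb2, Serpinb3a, Serpinb5, Serpinb7 and Serpinb12, together with Serpini1, Serpini2, Serpina3a and Serpina3j.

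A serpin acts as a bait. The protease cuts an exposed loop of the inhibitor, the serpin changes shape, and the protease stays trapped in a covalent complex that is then cleared. Secreted serpins of the liver restrain elastase, thrombin, plasmin and the complement proteases, while some members carry hormones or help proteins to fold and block no protease, and the clade B members stay inside cells. PPARA, a nuclear receptor abundant in hepatocytes, is activated by fatty acids and by fibrate drugs, and it raises genes of fatty acid use while lowering a number of plasma protein genes.

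RNA from the liver of 34 male C57Bl/6J mice, each an individual animal of 14 weeks killed at zeitgeber time 14, was labelled with Cy3 and hybridised to one-colour Agilent arrays. All mice ate a chow diet and received a daily gavage for 10 days, of fenofibrate at 100 mg/kg/day or of its vehicle, aqueous gum arabic at 3%. The genotypes were WT (4 vehicle, 4 fenofibrate), KO, which lacks Ppara in the whole body (3 and 5), LKO, which lacks it in the liver (4 and 5), and LWT, the wild-type counterpart of LKO (4 and 5). The sources used here do not say how the alleles of the LKO and LWT mice were built or how the KO line was bred. The comparisons ask what the drug changed in each genotype and how each knockout differed from its control line with and without the drug. They also ask whether the drug response differed between a knockout and its control line.

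Levels are log2 signals minus the array's own 75th percentile, so a difference of 1 is a doubling on the scanner's scale. A level of one probe cannot be set against that of another. Changes are log2 differences ± SE from limma, and a probe is called where the adjusted p (Benjamini-Hochberg over the 31037 probes of a comparison) is under 0.05. The share of probes well above background was 50.6% to 63.1% per array, replicates correlated at 0.979 to 0.994 across probes, and no member spot was saturated. Ppara, by its brightest probe, averaged 7.02 ± 0.20 (SD, n = 4) in WT vehicle mice, 5.34 ± 0.27 (n = 3) in KO, 7.03 ± 0.23 (n = 4) in LWT and 6.11 ± 0.09 (n = 4) in LKO. It was lower in both knockouts, by 1.68 ± 0.17 and 0.91 ± 0.16 (adjusted p = 1.09e-08 and 0.000209), and it is not known here whether the deletion removes the probe's target. Of 8 genes listed as a PPARA check, 7 were called higher with fenofibrate in WT, 5 in LWT and 0 in LKO or KO. In LKO, Cyp4a14 and Cyp4a10 had uncalled values of 3.58 ± 0.97 and 1.82 ± 0.63, and the other genes lay between -0.09 and 0.52. In LWT the same 2 genes had 1.89 ± 0.97 and 1.02 ± 0.63, also uncalled. The 12 hepatocyte markers were all detected, with summed linear levels of 7282 to 9826 over all arrays. These are measurements of whole liver, in which fewer cells of a type and less RNA per cell cannot be told apart.

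The probe sequences matter for this family because its genes arose by repeated duplication. On mouse build mm9, 28 of the 46 member probes (19 genes) lie on chromosome 12, in a cluster of Serpina genes. 9 member probes of 8 genes share a run of at least 20 bases with a probe of another Serpin gene, so their signal may come from more than one gene. The first sequences show this for the alpha-1-antitrypsin genes: the probes of Serpina1a, Serpina1c and Serpina1e have 29 bases in common, in lower case, and the first base is in capitals because it is where Serpina1e differs.
Serpina1a: Tgtcatccttccttctgaattgggttcctt
Serpina1c: Tgtcatccttccttctgaattgggttcctt
Serpina1e: Agtcatccttccttctgaattgggttcctt

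Serpina11 has a pair of probes on the same stretch of its minus strand, at chr12:105218465-105218524 and chr12:105218462-105218521 on mm9, which overlap by 57 bases and differ at 4 positions. Counted from the first base of the second of these probes, which was designed on a different transcript record, the changes from it to the first are C10T, C22T, C24T and G28T. A stretch of 30 bases of the overlap, which holds all 4 differences, is shown with the differing bases in capitals, because the 2 probes gave different results between genotypes.
Serpina11, dimmer probe: ccccctgcaCggcaggaccccCgCgctGca
Serpina11, brighter probe: ccccctgcaTggcaggaccccTgTgctTca

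The Serpinb8 probe on chromosome 1 is largely a TG repeat, with its longest unbroken repeat of 14 bases in capitals, and shares a run of 20 bases or more with probes of 3 other genes. Values of Serpinb8 below are values of this probe.
Serpinb8: tgtgtaTGTGTGTGTGTGTGcctctgtgtg

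Fenofibrate lowered Serpin probes in both control lines and the knockouts gave no call. In WT, 13 of the 46 probes fell and 2 rose, 15 in all (32.6%), against 16.4% of all probes in either direction and 8.72% that fell. In LWT, 15 fell and 1 rose, 16 in all (34.8%), against 13.7% of all probes in either direction and 6.43% that fell. The median change of the members was -0.27 in WT and -0.21 in LWT, while over all probes it was -0.00 and -0.01. 10 probes fell in both lines (76.9% of the 13 and 66.7% of the 15), those of Serpina11, Serpina1a, Serpina1d, Serpina1f, Serpina4-ps1, Serpina9, Serpinb8 and Serpine2, and Serpinb1a rose in both. Both probes of Serpina1d and of Serpina4-ps1 are among them, the latter on largely the same bases. How many of all probes fell in both lines was not counted. Without the second WT fenofibrate mouse the count in WT was 9 in place of 15.

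In LKO, 0 of 46 members were called by limma, against 0% of all probes, and 2 had an unadjusted p under 0.05. In KO, 0 were called, against 0.00967% of all probes, and 8 had an unadjusted p under 0.05. The median change of the members was -0.08 in LKO and 0.10 in KO. The difference between drug effects was itself tested. 7 members differed between LWT and LKO, all with a lower value in LWT, against 4.82% of all probes (2.68% higher in LWT and 2.15% lower). 8 differed between WT and KO, all with a lower value in WT, against 7.96% of all probes (3.92% higher and 4.04% lower). The drug effect differed between WT and LWT for 0 members and 0% of all probes (3 members at an unadjusted p under 0.05).

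**Figure D1:**
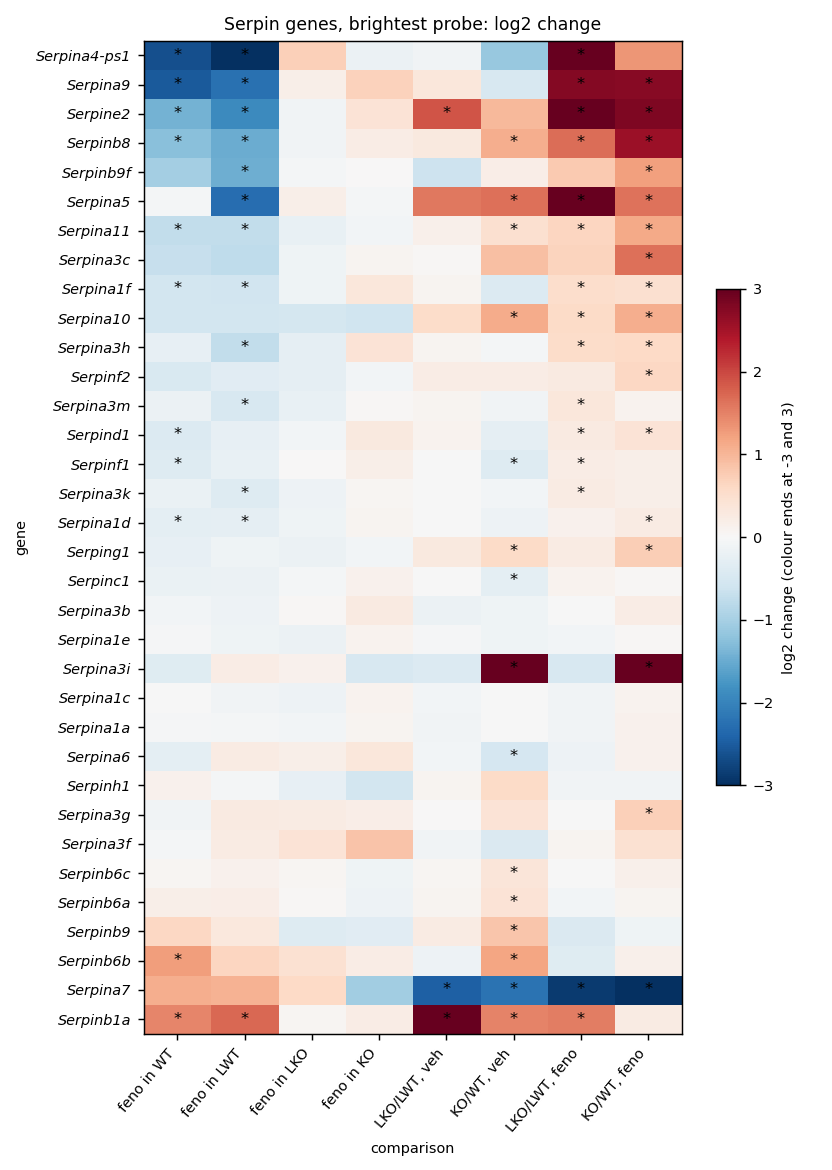
Log2 change of the brightest probe of each of the 34 Serpin genes in 4 fenofibrate comparisons and 4 comparisons of a knockout with its control line. Colour runs from blue (lower, ends at -3) to red (higher, ends at 3), and a star marks an adjusted p under 0.05; the columns for fenofibrate in LKO and KO have no star, and Serpina4-ps1 is the darkest blue for the drug in both WT and LWT, followed by Serpina9 in WT and by Serpina5 and Serpina9, at -2.28 and -2.24, in LWT.

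The alpha-1-antitrypsin genes come first, as the secreted inhibitors of neutrophil elastase. Mean levels over the 34 arrays were 10.58 for Serpina1a, 10.79 for Serpina1c, 10.13 for Serpina1d, 10.68 for Serpina1e and -1.52 for Serpina1f, whose protein is not known to be a plasma inhibitor. The probes that share their bases (above) stayed within 0.17 of no change with fenofibrate and were not called in any genotype. Serpina1d has 2 probes that share no such run. The one with the larger change read 9.79, 9.59, 9.75 and 9.71 in the 4 WT vehicle mice, and 9.25, 8.96, 9.33 and 9.24 in the 4 on fenofibrate. The ranges do not overlap, and the change was -0.51 ± 0.09 (adjusted p = 0.000118) in WT and -0.57 ± 0.08 (adjusted p = 1.84e-05) in LWT. In LKO the same probe changed by -0.16 and in KO by 0.14, neither called, and the difference between lines passed the test against LKO and against KO (adjusted p = 0.0444 and 0.00114).

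The other Serpina1d probe fell by 0.30 and 0.28 in WT and LWT (adjusted p = 0.0309 and 0.0370). The second Serpina1a probe, which shares no run with another Serpin probe, fell by 0.33 and 0.42 (adjusted p = 0.0146 and 0.00148). The second Serpina1e probe shares no such run either and was not called, at -0.14 in WT and -0.19 in LWT. Serpina1f fell by 0.54 ± 0.14 in WT and 0.58 ± 0.14 in LWT (adjusted p = 0.00824 and 0.00366), with no overlap between treatments in either line. The 2 probes of Serpina1a thus gave different answers, with values of -0.05 ± 0.11 and -0.33 ± 0.10 in WT. With vehicle, no alpha-1-antitrypsin probe differed between a knockout and its control.

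**Figure D2:**
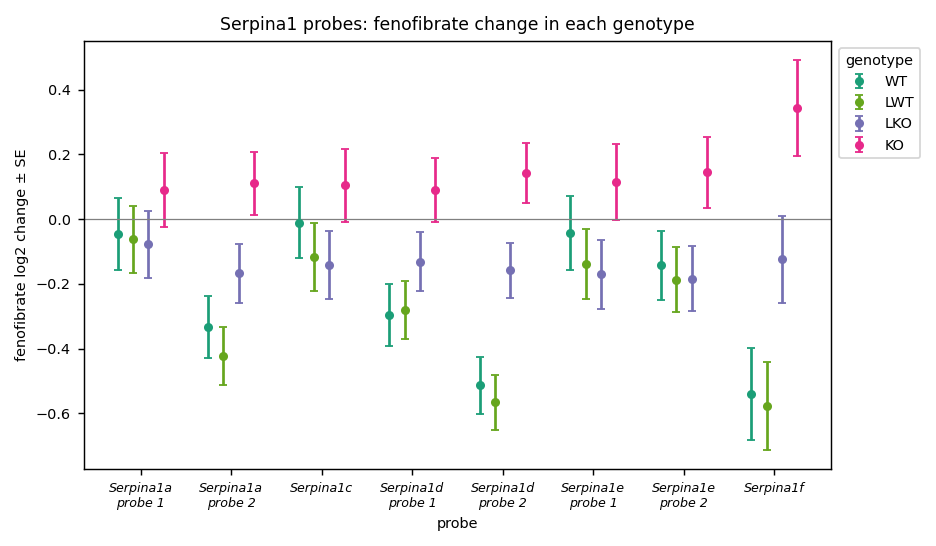
Fenofibrate log2 change (vertical axis, bars are SE) of the 8 probes of the alpha-1-antitrypsin genes in WT, LWT, LKO and KO mice. The second Serpina1a probe, both Serpina1d probes and Serpina1f lie below 0 in WT and LWT, while the probes with shared bases (Serpina1a probe 1, Serpina1c and Serpina1e probe 1) lie near 0 in all 4 genotypes. The second Serpina1e probe, without shared bases, was not called in any genotype.

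The Serpina3 genes are a mouse cluster related to the human gene of alpha-1-antichymotrypsin, an acute phase inhibitor of cathepsin G. Mean levels were 10.25 for Serpina3k, 8.65 for Serpina3m, 5.68 for Serpina3c, 4.38 for Serpina3h, 2.60 for Serpina3g, -0.32 for Serpina3i, -0.65 for Serpina3f and -1.09 for Serpina3b. Fenofibrate lowered 3 of them in LWT, Serpina3k by 0.38 ± 0.10, Serpina3m by 0.48 ± 0.13 and Serpina3h by 0.75 ± 0.21 (adjusted p = 0.00751, 0.0110 and 0.0163). None of the 8 was called for the drug in WT, where the same 3 genes had values of -0.20, -0.19 and -0.26. That difference between the lines did not pass its own test.

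Serpina3c read 4.54, 5.53, 5.71 and 5.70 with vehicle and 4.78, 4.44, 4.79 and 4.74 with fenofibrate in WT. In KO it read 5.77, 6.78 and 6.26 with vehicle and 5.02, 6.73, 6.79, 6.44 and 6.72 with fenofibrate. On fenofibrate every KO mouse was above every WT mouse, and the difference was 1.65 ± 0.30 (adjusted p = 5.90e-05); with vehicle it was 0.90 ± 0.34, which missed the threshold (adjusted p = 0.0532).

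Serpina3i had the largest difference between genotypes of any member. By its brightest probe (chr12:105504738 on mm9 at its start) the 4 WT vehicle mice read -2.68, -2.07, -1.91 and -2.22, and the 3 KO vehicle mice read 3.46, 2.29 and 2.64. With fenofibrate WT read -2.37, -2.65, -2.77 and -2.51, and KO read 2.42, 1.99, 2.92, 2.61 and 1.62. Every KO mouse was far above every WT mouse whatever the treatment, by 5.01 ± 0.81 with vehicle (32.3-fold, adjusted p = 3.25e-05) and 4.89 ± 0.72 with fenofibrate (29.6-fold, adjusted p = 2.52e-06). The second Serpina3i probe, which lies elsewhere on the transcript, differed less, by 0.71 with vehicle and 1.28 ± 0.38 with fenofibrate. That probe was dim, at a mean level of -3.33, and was well above background on 28 of 34 arrays. It passed the filter in 2 groups only, so its entry may depend on where it is high and its values are a description without a test. It is nevertheless 1 of the 23 probes counted as higher in KO than WT on fenofibrate.

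In the LWT and LKO mice the brightest Serpina3i probe lay at 2 separate heights within each group. LWT vehicle mice read -2.09, -1.68, 0.75 and 0.82, and LKO vehicle mice read -1.54, -1.29, 0.66 and -1.62. On fenofibrate LWT mice read 0.65, 0.39, 1.69, -2.23 and -2.16, and LKO mice read 0.55, -1.93, 0.70, -1.43 and -1.94. Over these 18 arrays, 8 lay between 0.39 and 1.69 and the other 10 between -2.23 and -1.29, with none between, and both kinds occurred with and without the drug and on each of 4 slides. The drug gave no call in any genotype (values from -0.48 to 0.22), and LKO and LWT gave no call either, with a spread within groups that limits what could be detected.

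The dimmer Serpina11 probe spread in the same way. In the same order of mice as for Serpina3i, LWT vehicle mice read 5.25, 5.48, 7.08 and 7.14, and LKO vehicle mice 5.49, 5.94, 7.15 and 5.68. On fenofibrate LWT mice read 6.34, 6.25, 7.41, 4.55 and 4.78, and LKO mice 7.06, 5.47, 7.09, 5.29 and 5.32. The mice high on one probe were thus the mice high on the other. WT vehicle mice read 5.58, 5.41, 5.37 and 5.59, and KO vehicle mice 8.39, 8.11 and 7.85. The KO mice were thus above all others, by 2.63 ± 0.55 over WT with vehicle (adjusted p = 0.000631) and 3.17 ± 0.48 with fenofibrate (adjusted p = 4.22e-06).

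The brighter Serpina11 probe, which differs from it at the 4 positions shown above, had a smaller difference. It read 6.93, 6.55, 6.54 and 6.77 in WT vehicle mice and 7.48, 7.10 and 6.98 in KO vehicle mice, a difference of 0.49 ± 0.16 (adjusted p = 0.0242; 0.158 without the first KO vehicle mouse). It also fell with fenofibrate, to 5.98, 5.57, 6.13 and 6.17 in WT, by 0.74 ± 0.15 (adjusted p = 0.000744), and by 0.73 ± 0.14 in LWT (adjusted p = 0.000551), with no overlap in either line. For the dimmer probe the drug values were -0.66 in WT and -0.37 in LWT, not called. What separates the mice on these probes was not tested.

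**Figure D3:**
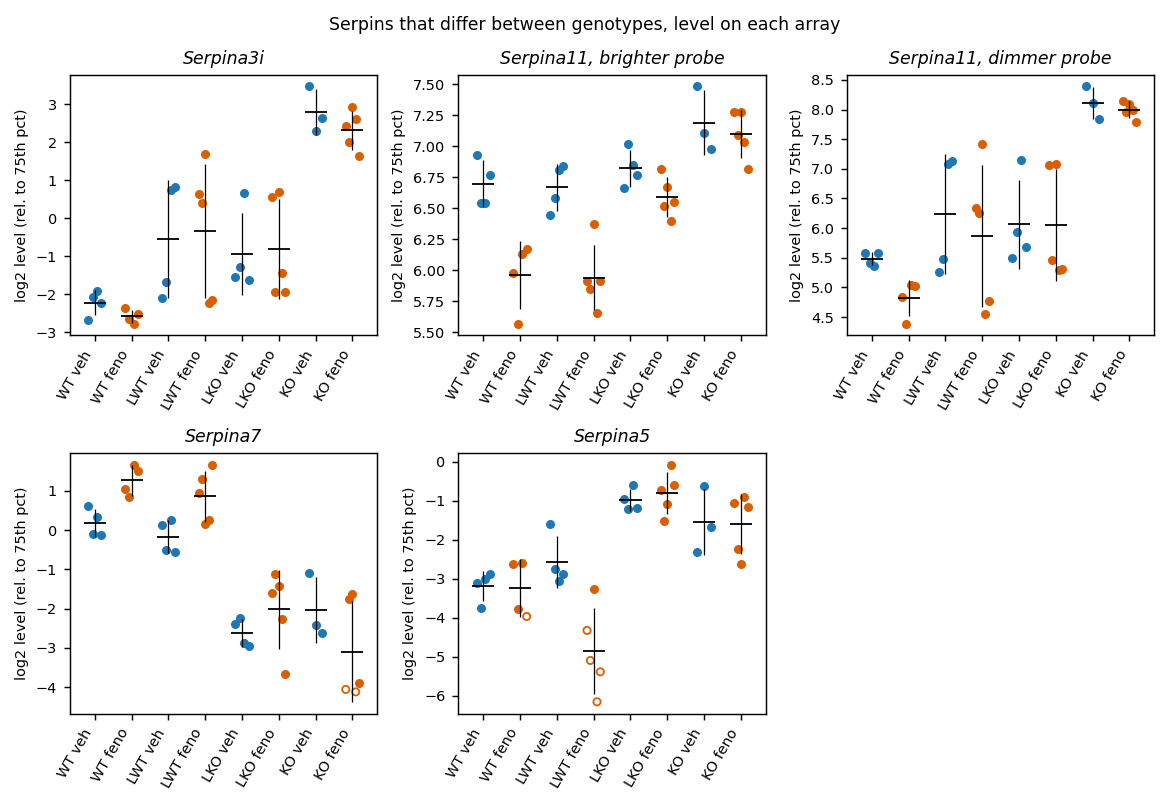
Level on each array (log2, minus the array's 75th percentile) of 4 Serpin genes that differ between genotypes, with both Serpina11 probes; blue points are vehicle and orange points fenofibrate mice, open points are not well above background, and lines are the mean and SD. Serpina3i and the dimmer Serpina11 probe are highest in KO and spread into high and low mice in LWT and LKO, and Serpina7 is low in LKO and KO.

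The hormone carriers are serpins that no longer inhibit a protease. Serpina7 encodes thyroxine-binding globulin and Serpina6 corticosteroid-binding globulin, and they were at mean levels of -0.96 and 6.53. Serpina7, on chromosome X, read 0.61, -0.10, 0.33 and -0.14 in WT and 0.12, -0.52, 0.25 and -0.55 in LWT with vehicle. LKO vehicle mice read -2.40, -2.24, -2.87 and -2.96, and KO vehicle mice -1.09, -2.41 and -2.63. Every knockout mouse was below every control, by 2.44 ± 0.52 in LKO (5.44-fold, adjusted p = 0.00321) and 2.22 ± 0.56 in KO (4.65-fold, adjusted p = 0.00411). Both calls were kept under 10 of 10 other settings. The size depended on the processing, with values as small as -1.40 in LKO and -1.44 in KO.

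On fenofibrate WT mice read 1.05, 0.83, 1.66 and 1.51 for Serpina7, and LWT mice 0.94, 1.29, 0.16, 0.25 and 1.66. LKO mice read -1.60, -1.13, -1.44, -2.26 and -3.67, and KO mice -4.06, -1.77, -1.62, -4.12 and -3.90, 2 of these 5 not well above background. The groups again did not overlap, and the difference was -2.88 ± 0.47 for LKO (adjusted p = 1.67e-05) and -4.36 ± 0.49 for KO (adjusted p = 3.24e-08). Under other settings these differences were as small as -1.94 for LKO and -2.75 for KO, with both calls kept. The drug change of Serpina7 itself was 1.09 ± 0.52 in WT and 1.04 ± 0.49 in LWT, which did not pass the threshold (adjusted p = 0.170 and 0.181).

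Serpina6 was lower in KO than in WT with vehicle, by 0.51 ± 0.17 (adjusted p = 0.0307), and its second probe by 0.60 ± 0.19 (adjusted p = 0.0191). On fenofibrate the difference was 0.14 ± 0.15 and not called. Of 9 measured genes that handle the same hormones, Hsd11b1, which regenerates active glucocorticoid, fell with fenofibrate by 1.15 in WT and 0.86 in LWT, together with Nr3c1, the glucocorticoid receptor, in WT and Dio1, a thyroxine deiodinase, in LWT. Dio1 was lower in KO than WT with vehicle, by 1.25 ± 0.22 (adjusted p = 0.000110), and Tat, a glucocorticoid-responsive enzyme, was higher.

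The inhibitors of coagulation changed in different directions. Serpinc1 (antithrombin) had a mean level of 9.74, Serpind1 (heparin cofactor II) of 7.28, Serpina10 (the inhibitor that works with protein Z on factor X) of 6.88, Serpine2 (protease nexin-1, an inhibitor of thrombin and urokinase) of -0.54 and Serpina5 (protein C inhibitor) of -2.38. Serpind1 fell with fenofibrate in WT, by 0.40 ± 0.11 (adjusted p = 0.00957). Serpinc1 was not called for the drug, with values of -0.19 in WT and -0.18 in LWT, and was lower in KO than WT with vehicle, by 0.30 ± 0.09 (adjusted p = 0.0102).

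Serpina10 read 6.88, 6.64, 6.68 and 6.85 in WT and 8.82, 7.42 and 7.41 in KO vehicle mice. All 3 KO mice were above WT, 1 of them well above the others, and the difference was 1.12 ± 0.24 (adjusted p = 0.000708), with 1.09 ± 0.21 on fenofibrate (adjusted p = 0.000103). Its second probe gave 1.21 and 1.23. The drug value was -0.56 in WT, -0.56 in LWT, -0.53 in LKO and -0.59 in KO, uncalled in each.

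Serpine2 fell with the drug in both control lines, and it was higher in LKO than LWT with either treatment and in KO than WT on fenofibrate. WT mice read -1.40, -1.06, -0.35 and -0.40 with vehicle, and -2.40, -1.91, -2.36 and -2.25 with fenofibrate. LWT mice read -1.34, -0.83, -0.77 and -0.73 with vehicle, and -2.62, -3.51, -2.28, -1.79 and -3.89 with fenofibrate. The treatments did not overlap, and the change was -1.43 ± 0.38 in WT (adjusted p = 0.00924) and -1.90 ± 0.36 in LWT (adjusted p = 0.000434).

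In LKO mice Serpine2 read 0.34, 1.20, 1.28 and 1.04 with vehicle and 0.36, 0.60, 0.75, 1.32 and 1.30 with fenofibrate. In KO mice it read -0.72, 0.34 and 0.86 with vehicle and 0.79, 0.41, -0.41, 0.99 and 1.04 with fenofibrate. LKO mice were all above LWT mice, by 1.88 ± 0.38 with vehicle (adjusted p = 0.00179) and 3.68 ± 0.34 with fenofibrate (12.9-fold, adjusted p = 8.41e-10). Under other settings the difference on fenofibrate was as small as 2.32, with the call kept. KO exceeded WT by 2.79 ± 0.36 on fenofibrate (adjusted p = 3.29e-07), and with vehicle the difference of 0.96 ± 0.41 was not called. The drug effect differed between LWT and LKO (adjusted p = 0.0357) and between WT and KO (adjusted p = 0.0350). The first call was kept under 7 of 11 other settings, with values as small as -0.84 (adjusted p = 0.176, with the offset correction), and was lost without 1 LKO vehicle mouse (adjusted p = 0.0974). The second was kept under 8 of 11 and was lost without 1 KO vehicle mouse (adjusted p = 0.112).

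Serpina5 was dim, and its values are given with that limit. LWT mice read -1.59, -2.76, -3.05 and -2.89 with vehicle, and -4.33, -5.10, -3.28, -6.16 and -5.39 with fenofibrate, where 1 of 5 was well above background. WT mice read -3.11, -3.75, -3.004 and -2.89 with vehicle and -2.62, -3.78, -2.59 and -3.97 with fenofibrate. LKO mice read -0.95, -1.20, -0.59 and -1.18 with vehicle and -0.74, -1.52, -1.10, -0.08 and -0.59 with fenofibrate. It fell with the drug in LWT, with a change of -2.28 ± 0.46 (adjusted p = 0.000921), and the value in WT was -0.05 ± 0.49, not called. That difference between lines did not pass its own test.

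On fenofibrate the LKO mice were above all LWT mice for Serpina5, by 4.05 ± 0.44 (adjusted p = 1.73e-08), a size that is uncertain because 4 of the 5 LWT values lie in the background and that was 1.44 with the background correction described next. KO exceeded WT by 1.64 ± 0.46 (adjusted p = 0.00561). With a background correction that adds an offset to dim spots the change in LWT was -0.51 in place of -2.28 and was not called (adjusted p = 0.118). The drug effect differed between LWT and LKO by -2.45 ± 0.65 (adjusted p = 0.0244), a call kept under 6 of 10 other settings, with values as small as -0.68 (adjusted p = 0.230). In KO vehicle mice, at -2.31, -0.63 and -1.68, the difference from WT was 1.65 ± 0.53 (adjusted p = 0.0212) and was lost without the second of them (adjusted p = 0.143).

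The proteases that these inhibitors meet fell with the drug as well. Of 12 measured proteases of coagulation and fibrinolysis, 10 fell and 0 rose in WT, and 7 fell and 0 rose in LWT, against 0 called in LKO and in KO. F11 (coagulation factor XI) fell by 0.87 ± 0.16 in WT and 0.79 ± 0.15 in LWT, F7 (factor VII) by 0.75 and 0.55, and F2 (prothrombin) by 0.29 and 0.27. On fenofibrate 10 of the 12 were higher in LKO than LWT and 9 were higher in KO than WT. The list had a median of -0.36 in WT and -0.30 in LWT.

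Among the inhibitors of fibrinolysis and complement, Serpinf2 (alpha-2-antiplasmin) had a mean level of 7.60 and Serping1 (C1 inhibitor) of 8.54. Serping1 was higher in KO than WT by 0.58 ± 0.14 with vehicle (adjusted p = 0.00246) and 0.75 ± 0.12 with fenofibrate (adjusted p = 1.27e-05), with both probes called each time and no overlap. Its targets, the complement proteases, fell with fenofibrate: all 7 measured names in WT and 6 in LWT, with C1ra at -0.55 ± 0.09 and -0.51 ± 0.09 and C1s at -0.82 ± 0.12 and -0.70 ± 0.12. C1s and C1s1 in that list are represented by the same probe. Serping1 itself was not called for the drug, with -0.25 in WT and -0.12 in LWT. Serpinf2 was higher in KO than WT on fenofibrate, by 0.61 ± 0.16 (adjusted p = 0.00325).

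Among the other secreted serpins, Serpina4-ps1, a pseudogene related to kallistatin, had the largest fall of any member with the drug. WT mice read 7.85, 6.16, 7.46 and 8.69 with vehicle and 4.54, 3.41, 6.999 and 4.63 with fenofibrate. LWT mice read 6.84, 5.32, 6.91 and 6.95 with vehicle and 3.42, 2.97, 3.90, 2.63 and 3.14 with fenofibrate. The groups overlapped in WT, through 1 treated mouse at 6.999, and not in LWT, and the fall was 2.64 ± 0.73 (6.25-fold, adjusted p = 0.0118) in WT and 3.29 ± 0.69 (9.78-fold, adjusted p = 0.00135) in LWT. The WT call was lost without the second WT fenofibrate mouse (adjusted p = 0.0632).

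In LKO mice Serpina4-ps1 read 7.63, 5.28, 6.68 and 6.03 with vehicle and 7.98, 5.82, 7.17, 7.46 and 7.16 with fenofibrate. In KO mice it read 6.96, 7.47 and 4.77 with vehicle and 7.60, 6.90, 3.95, 5.89 and 6.74 with fenofibrate. Treated LKO mice were thus all above treated LWT mice, by 3.91 ± 0.65 (adjusted p = 2.70e-05). The drug effect differed between LWT and LKO by -4.00 ± 0.98 (adjusted p = 0.0131). The second probe, which lies on largely the same bases and so is no separate measurement of the transcript, gave -4.02.

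Serpina9, known in humans as centerin from germinal centre B cells, read 0.79, -0.10, -0.17 and 0.20 in WT with vehicle and -2.32, -3.22, -1.16 and -2.67 with fenofibrate. In LWT it read 0.71, -0.23, 0.11 and -1.42 with vehicle and -2.13, -1.92, -1.59, -3.22 and -3.38 with fenofibrate. The drug lowered it in both lines with no overlap, by 2.52 ± 0.52 (5.75-fold, adjusted p = 0.000873) and 2.24 ± 0.49 (4.73-fold, adjusted p = 0.00202).

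In LKO Serpina9 read 0.68, 0.39, 0.59 and -1.17 with vehicle and 1.16, 0.04, 0.68, 0.33 and -0.66 with fenofibrate. In KO it read -0.61, 0.77 and -1.05 with vehicle and 1.16, 0.48, -0.58, 0.59 and 0.33 with fenofibrate. The treatments overlapped in both knockouts, and the drug effect differed between LWT and LKO by -2.43 ± 0.70 (adjusted p = 0.0385) and between WT and KO by -3.22 ± 0.75 (adjusted p = 0.00599). The former was kept under 7 of 11 other settings, with values as small as -1.51, and was lost without 1 LKO vehicle mouse (adjusted p = 0.1002). Serpinf1 (pigment epithelium-derived factor), at a mean level of 8.34, fell with the drug in WT by 0.39 ± 0.08 (adjusted p = 0.00144) and was not called in LWT (-0.22).

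**Figure D4:**
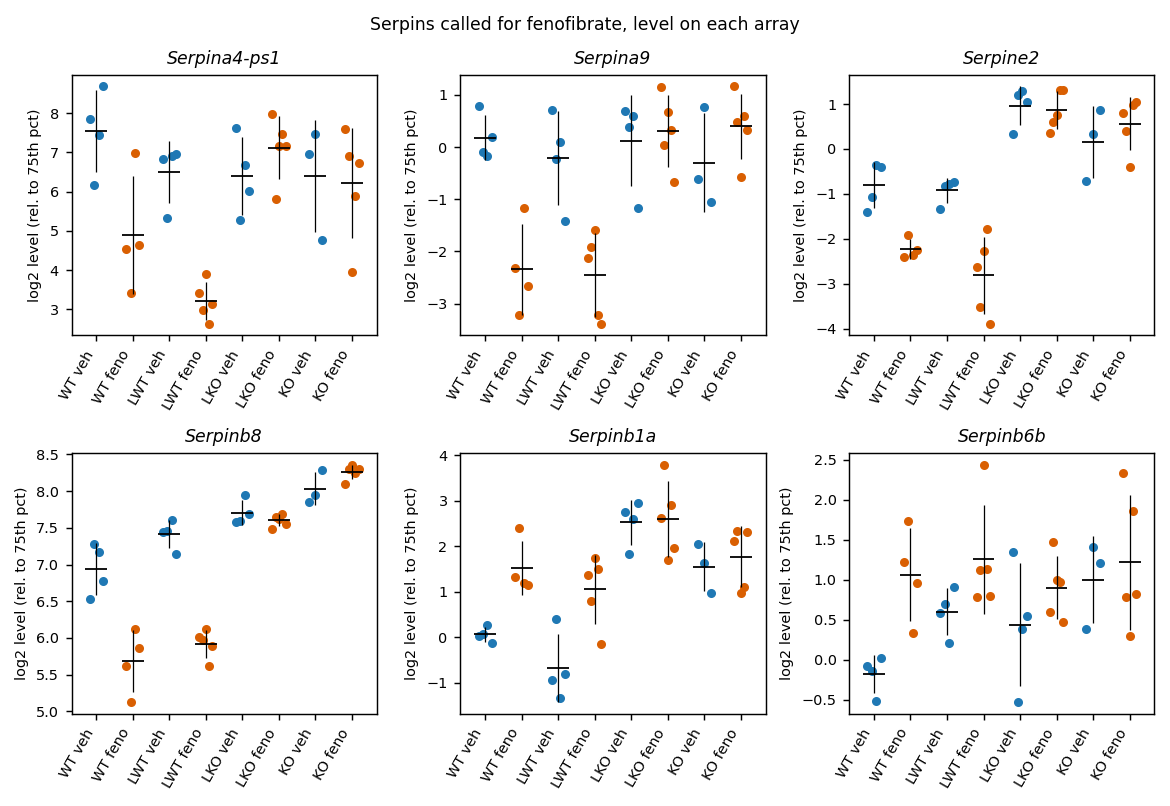
Level on each array (log2, minus the array's 75th percentile) of 6 Serpin genes called for fenofibrate in WT; blue points are vehicle and orange points fenofibrate mice, and lines are the mean and SD. Serpina4-ps1, Serpina9, Serpine2 and Serpinb8 are lower with the drug in WT and LWT and not in LKO or KO, Serpinb1a is higher with it in WT and LWT, and Serpinb6b was called in WT and not in LWT.

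Serpina11, Serpina1f, Serpinb9f, Serpinf1 and Serpinf2 were the genes with a letter match to the core motif of nuclear receptors, AGGTCA on either strand, in the 250 bases before a RefSeq start. Among 29 Serpin promoters of 25 genes, 6 held it, beside 14.024% of 32851 mouse promoters. The direct repeat of that motif with a single-base spacer (DR1), which PPARA prefers and which holds the core motif within it, was in 0 of the 29 and in 0.033% of all promoters. TTCNNNGAA, the letters of a STAT site, were in 8 of the 29 and in 7.02% of all. The 8 were promoters of Serpina11, Serpina1f, Serpina3f, Serpina3g, Serpina3i and Serpinb6a. Serpina11 and Serpina3f each entered with overlapping promoters that hold the same STAT match, and for Serpina11 also the same core motif. The 8 and the 6 thus count some sites more than once. In Serpina11, whose brighter probe fell in both control lines, the core motif and the STAT letters lie side by side. The window on build GRCm38.p6 is chr12:103989958-103990057, minus strand, with both matches in capitals.
Serpina11 promoter: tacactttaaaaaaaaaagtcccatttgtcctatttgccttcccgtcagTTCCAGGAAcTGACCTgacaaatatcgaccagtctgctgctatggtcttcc
These are matches of letters and say nothing of whether a factor binds there.

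Serpinh1 is the collagen chaperone HSP47 of the endoplasmic reticulum and inhibits no protease. At a mean level of -0.09 it was not called in any comparison, with drug values of 0.13 ± 0.24 in WT and -0.06 ± 0.23 in LWT. Of 7 genes of collagens and their maturation, Col4a1 (a basement membrane collagen) rose with the drug in WT, and on fenofibrate 4 were lower in KO than WT.

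The clade B serpins guard the inside of cells against stray proteases. Mean levels were 7.17 for Serpinb8, 3.05 for Serpinb6a, 2.77 for Serpinb6c, 1.34 for Serpinb1a, 0.81 for Serpinb6b, -1.33 for Serpinb9 and -4.20 for Serpinb9f. Serpinb1a, an inhibitor of neutrophil elastase and cathepsin G that hepatocytes also make, read 0.04, 0.07, 0.27 and -0.12 in WT with vehicle and 1.33, 2.40, 1.19 and 1.15 with fenofibrate. LWT mice read -0.94, 0.41, -1.33 and -0.80 with vehicle and 1.38, 0.80, 1.73, 1.49 and -0.15 with fenofibrate. It rose in both, by 1.46 ± 0.44 (adjusted p = 0.0209) without overlap and by 1.72 ± 0.42 (adjusted p = 0.00491) with overlap. The rise in WT was not called without the second treated mouse (adjusted p = 0.10004).

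Serpinb1a was also higher in both knockouts than in their controls. With vehicle LKO mice read 2.75, 1.82, 2.61 and 2.94, and KO mice 2.04, 1.64 and 0.98. With fenofibrate they read 2.63, 3.79, 1.70, 2.90 and 1.96 in LKO and 2.11, 2.34, 0.98, 1.11 and 2.30 in KO. The differences with vehicle were 3.19 ± 0.44 for LKO (9.15-fold, adjusted p = 8.13e-06) and 1.49 ± 0.47 for KO (adjusted p = 0.0202; 0.0909 without the first KO vehicle mouse). Thus the gene was higher both with the drug where Ppara was intact and in untreated mice without Ppara. On fenofibrate LKO exceeded LWT by 1.54 ± 0.39 (adjusted p = 0.00300), and KO and WT overlapped (0.25 ± 0.42).

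Serpinb8, in humans an inhibitor of the convertase furin, fell in both control lines and in no knockout. Its probe read 6.53, 7.28, 7.18 and 6.77 in WT with vehicle and 5.62, 5.13, 6.12 and 5.86 with fenofibrate. In LWT it read 7.44, 7.46, 7.60 and 7.14 with vehicle and 6.01, 5.97, 6.12, 5.62 and 5.89 with fenofibrate. It fell by 1.26 ± 0.16 in WT (adjusted p = 1.62e-06) and 1.49 ± 0.15 in LWT (adjusted p = 3.91e-08), without overlap.

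LKO mice read 7.58, 7.60, 7.95 and 7.69 for Serpinb8 with vehicle and 7.49, 7.65, 7.62, 7.69 and 7.55 with fenofibrate. KO mice read 7.86, 7.95 and 8.28 with vehicle and 8.09, 8.29, 8.35, 8.25 and 8.30 with fenofibrate. The drug effect differed between LWT and LKO by -1.39 ± 0.22 (adjusted p = 0.000127) and between WT and KO by -1.48 ± 0.23 (adjusted p = 8.09e-05). With vehicle KO was already above WT by 1.09 ± 0.18 (adjusted p = 2.70e-05), whereas LKO and LWT differed by 0.29 ± 0.16, not called. Because the probe is mostly a TG repeat, the transcript behind these values is uncertain.

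Serpinb6b, of the Serpinb6 group whose human relative inhibits cathepsin G, read -0.08, -0.14, -0.52 and 0.02 in WT with vehicle and 1.23, 1.73, 0.34 and 0.96 with fenofibrate. The rise in WT was 1.25 ± 0.40 (adjusted p = 0.0308; 0.122 without the second treated mouse), and in LWT the value was 0.65 ± 0.38, not called. KO vehicle mice, at 0.39, 1.41 and 1.20, were above WT by 1.18 ± 0.43 (adjusted p = 0.0444; 0.159 without the second KO mouse). That call was kept under 6 of 11 other settings. Serpinb9, an inhibitor of granzyme B, was higher in KO than WT with vehicle by 0.82 ± 0.24 (adjusted p = 0.0112), as were Serpinb6a by 0.41 and Serpinb6c by 0.36.

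Serpinb9f was near background in every group and well above it on all arrays of LWT vehicle mice only. These read -3.67, -3.56, -3.95 and -3.43, and the treated LWT mice -4.41, -4.73, -5.86, -5.72 and -4.86, none of them well above background. The probe passed the filter only through the LWT vehicle group, where it is high, so its values are a description without a test. It is nevertheless 1 of the 15 probes counted as lower in LWT and 1 of the 23 counted as higher in KO than WT on fenofibrate. Of 6 measured cathepsins, Ctsh fell in WT and Ctsd rose in LWT with the drug, while Ctsl was higher in LKO than LWT (0.52 ± 0.14) and in KO than WT (0.86 ± 0.15) with vehicle. Of 6 measured leukocyte serine proteases, 0 were called by limma for the drug in any genotype.

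Without the drug, fewer Serpin probes differed between LKO and LWT than between KO and WT, as was the case over all probes. With vehicle, 3 of 46 probes (6.52%) differed between LKO and LWT, against 4.43% of all probes (1.2% higher and 3.23% lower). Serpinb1a and Serpine2 were higher and Serpina7 was lower. Between KO and WT 19 differed (41.3%), 14 higher and 5 lower, against 25.1% of all probes in either direction, 10.9% higher and 14.2% lower. The median difference of the members was 0.02 for LKO and 0.10 for KO, beside -0.01 and -0.05 over all probes. Serpinb1a and Serpina7 were called in both, in the same directions. With only the WT and KO vehicle arrays fitted, the count in KO was 10 in place of 19.

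The KO vehicle mice also differed from WT in acute phase genes, which respond to inflammation. Of 22 such genes outside the family, 15 were higher and 0 lower in KO, with a median of 0.94. Saa1 (serum amyloid A1) was higher by 4.63 ± 0.93, Lcn2 (lipocalin-2) by 6.39 ± 0.88 and Fga (fibrinogen alpha) by 1.51 ± 0.25. On fenofibrate 15 were higher and 1 lower. In LKO against LWT with vehicle 0 of 22 were called.

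Marker genes of white blood cells moved in the same mice, in both directions. Of 6 measured neutrophil markers 3 were higher and 1 lower in KO with vehicle, and their summed level was 7.36 to 22.5 in the 3 KO mice and 5.57 to 7.33 in WT, with Mpo, Cxcr2 and Ngp not measured. Of 12 Kupffer cell and macrophage markers, 5 were higher and 1 lower, with sums of 145 to 542 in KO and 125 to 179 in WT. Lymphocyte markers, 10 of 11 measured, had lower sums in KO, at 35.3 to 78.8 (median 69.7) beside 62.3 to 126 (median 98.6) in WT. Members called higher in KO with vehicle were Serpina3i, Serpina5, Serpina10, Serpina11, Serping1, Serpinb1a, Serpinb6a, Serpinb6b, Serpinb6c, Serpinb8 and Serpinb9. The calls of Serpina5, Serpina11, Serpinb1a and Serpinb6b were lost under some other settings. The part of the acute phase genes or of these cells in these members was not tested.

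On fenofibrate the knockouts and controls differed in more Serpin probes. Between LKO and LWT 18 differed, 17 higher and 1 lower in LKO, against 30.1% of all probes, 15% higher and 15.2% lower. Between KO and WT 24 differed, 23 higher and 1 lower, against 38.2% of all probes, 18.8% higher and 19.4% lower. The 23 include the dim second Serpina3i probe. They also include Serpinb9f, which is near background, and its call was kept under 6 of 10 other settings, with values as small as 0.17. 11 probes were higher in both knockouts (64.7% of the 17 and 47.8% of the 23), 1 each of Serpina10, Serpina11, Serpina1a, Serpina1d, Serpina1f, Serpina3h, Serpina5, Serpina9, Serpinb8, Serpind1 and Serpine2. How many of all probes were higher in both was not counted. Serpina7 was lower in both. These comparisons share their treated control mice with the fenofibrate comparisons above.

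Between the control lines no member was called. With vehicle, 0 of 46 members differed between WT and LWT in limma, against 0.561% of all probes (0.306% higher in WT and 0.255% lower), and 2 had an unadjusted p under 0.05. Across all 8 groups, 32 of 46 members showed a difference, against 52.5% of all probes.

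Genes that share the plasma with the serpins changed alongside them. Of 18 measured plasma protease inhibitors of other families, 6 fell and 1 rose with the drug in WT and likewise 6 and 1 in LWT. Mug1 and Mug2 (murinoglobulins, which trap proteases in a cage) fell by 0.52 and 0.50 in WT and 0.60 and 0.58 in LWT, and Itih4, a heavy chain of the inter-alpha-trypsin inhibitor family, by 0.73 and 0.68. Cst3 (cystatin C) rose by 0.39 ± 0.08 and 0.41 ± 0.08. None of the 18 was called for the drug in LKO or KO.

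Of 8 serpin cofactors and receptors, 3 fell and 1 rose in WT, and 2 fell and 1 rose in LWT. Vtn (vitronectin, an adhesive plasma protein) fell by 0.55 ± 0.10 and 0.51 ± 0.09, Lman1, a cargo receptor of the secretory pathway, by 0.33 and 0.39, and its partner Mcfd2 by 0.38 in WT. Vldlr, a receptor that takes up serpin complexes, rose by 3.02 ± 0.43 and 4.34 ± 0.41. Among acute phase genes 6 fell and 1 rose in each control line, the riser being Il1rn, the interleukin-1 receptor antagonist. Of 14 measured growth hormone and male-biased liver genes 7 fell and 1 rose in WT, and 8 and 1 in LWT. Of the adipocyte list 3 genes were measured and 2 rose, with sums of 13.4 to 38.3 in treated and 2.94 to 4.08 in vehicle WT mice, while Adipoq, Plin1 and Lep were not measured. The part of any of these in the changes of the serpins was not tested.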

How the data were processed

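The deposited scanner files hold linear, background-corrected spot intensities, written per the file headers by version 10.10.1.1 of Agilent's Feature Extraction. The authors' deposited value table is in log2 units and served as an alternative; the sources used here do not describe its normalization, beyond limma in the submitters' processing notes. The headers place probes on mm9. Flags for outliers and for signal well above background came from the deposited files.

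Control spots were left out, flagged outlier spots were set to missing (213 values among the probes tested, 0 among the members), spots of a probe were averaged, and the 75th percentile of each array's log2 values was subtracted. A probe entered if 1 group or more had it flagged as well above background on all its arrays. One mean per group was fitted to 31037 probes with limma 3.58.1 in R 4.3.3, without covariates, and p-values are two-sided. The arrays' number limits the precision. Data were simulated for fenofibrate in WT over 31037 probes, with independent normal noise, 200 changed probes and no other difference between groups. Calls recovered 34.3% of changes of 0.5, 76.1% of 1 and 93.9% of 2, with 6 false calls. In the real comparison 5080 probes were called, so these rates need not hold there.

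Values per array are given for the 12 genes with the largest called change of the brightest probe, and for further probes of Serpina11, Serpina3i, Serpina10 and Serpina1d. A few genes of the family are not reported here. The family, lists and rules were chosen with earlier results of these data known. Probe sequences are from the scanner files, promoters from RefSeq (GRCm38.p6). Gene names of the lists came from the array, updated by accession for 27235 of 55681 probes.

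Same-numbered mice deviated together in LKO and LWT with vehicle (r from 0.112 to 0.294 over 4 pairs) and in KO and WT with vehicle (0.115 to 0.414 over 3 pairs). Several of those pairs also shared a slide. By a rule of every r over 0.1, none of the other pairs of groups that were checked did so. Only groups compared directly with each other were checked. WT and LWT with vehicle missed the rule narrowly, with r from 0.0871 to 0.217 over 4 pairs. The labels do not say that the numbers pair mice. Arrays lay on 5 slides, taken as possible batches and spread unevenly over the groups. The fit behind the values above had no term for slide, which entered only as a block in an alternative setting. Changes of named genes that were called in the pooled fit were also computed within a slide, and 72 of 72 had the pooled sign. Only called changes entered, from subsets of the same arrays, often 1 against 1. The agreement was thus largely fixed in advance and does not exclude slide effects.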

Additional observations from a re-analysis of the deposited data

Results flagged for a closer look

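In 11 of 84 groups of 4 or 5 mice, taken over the 12 genes given by array, 1 mouse lay far from the others by Dixon's test, which flags about 1 group in 20 by chance. The LKO vehicle mouse 3 read 0.66 for Serpina3i, where the others read -1.62 to -1.29, and the LWT vehicle mouse 2 read 5.32 for Serpina4-ps1 (others 6.84 to 6.95). The LWT vehicle mouse 1 read -1.34 for Serpine2 (others -0.83 to -0.73), and the WT fenofibrate mouse 2 read 2.40 for Serpinb1a (others 1.15 to 1.33). For Serpina9 the LKO vehicle mouse 4 read -1.17 (others 0.39 to 0.68). Serpina3c had 3 such mice, at 4.54 in WT vehicle (others 5.53 to 5.71), 4.44 in WT fenofibrate (others 4.74 to 4.79) and 5.02 in KO fenofibrate (others 6.44 to 6.79). Serpinb9f had 2, both dim, at -6.27 in WT fenofibrate (others -4.48 to -4.26) and -5.76 in LKO fenofibrate (others -4.21 to -3.61). Serpinb6b read 2.44 in the LWT fenofibrate mouse 3 (others 0.78 to 1.13).

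The drug effect differed between a control line and its knockout, by an interaction test, for 15 probe values. Between LWT and LKO these were -4.00 ± 0.98 and -4.02 ± 1.01 for the 2 Serpina4-ps1 probes, -2.45 ± 0.65 for Serpina5 (-0.68 and not called with normexp), -2.43 ± 0.70 for Serpina9, -1.80 ± 0.51 for Serpine2 (-0.84 and not called with normexp), -1.39 ± 0.22 for Serpinb8 and -0.41 ± 0.12 for Serpina1d. Between WT and KO they were -3.22 ± 0.75 for Serpina9, -1.83 ± 0.55 for Serpine2, -1.48 ± 0.23 for Serpinb8, -0.89 ± 0.21 for Serpina1f, -0.68 ± 0.15 for Serpind1, -0.66 ± 0.13 for Serpina1d, -0.56 ± 0.12 for Serpinf1 and -0.44 ± 0.14 for the second Serpina1a probe. Of these calls, that of Serpina9 between LWT and LKO was kept under 7 of 11 other settings.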

How the results depend on the processing

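Of 539 changes of named genes under other settings (normalization, background correction, the authors' value table, no filter, slide or replicate number as a block, fewer groups, and leaving out mice), 500 kept direction and side of the threshold, 39 lost the call and 0 reversed. With all mice kept, the counts of called members stayed within 1.5 times of the values given, with these exceptions. For LKO against LWT with vehicle the count was 5 in place of 3 with normexp and quantile normalization and with the authors' table. For KO against WT with vehicle it was 10 in place of 19 with only those groups fitted. For the difference of drug effects between LWT and LKO it was 4 in place of 7 with normexp or the authors' table and 3 of 75 probes without a filter. Between WT and KO it was 15 in place of 8 with normexp or the authors' table and 14 with slide as a block. The cause was not tested.

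Leaving out 1 mouse in turn gave, for fenofibrate, 9 to 15 called members among WT mice and 14 to 16 among LWT mice, against 0 for LKO and 0 to 1 for KO. It gave 3 to 4 for LKO against LWT and 13 to 23 for KO against WT with vehicle, and 12 to 19 and 21 to 25 with fenofibrate. WT against LWT stayed at 0. The differences of drug effects gave 4 to 7 between LWT and LKO, 6 to 12 between WT and KO and 0 between WT and LWT, and the test over all 8 groups 30 to 35. The values beyond 1.5 times were 9 in place of 15 in WT without WT fenofibrate mouse 2, 1 in place of 0 in KO without KO vehicle mouse 2, and 4 in place of 7 between LWT and LKO without LWT vehicle mouse 3 or LKO vehicle mouse 4.

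With the replicate block, 3 and 21 members were called for LKO against LWT and KO against WT with vehicle. In these comparisons same-numbered mice deviated together by the rule above, but the labels do not say that the numbers pair mice. In the other comparisons the block gave 16, 18, 0 and 0 for fenofibrate in WT, LWT, LKO and KO. It gave 19 and 24 for the knockouts on fenofibrate and 34 for any difference. For the differences of drug effects it gave 6 (LWT minus LKO) and 11 (WT minus KO). WT against LWT and WT minus LWT gave 0. For dim probes normexp gave smaller changes: Serpinb9f in LWT was -0.23, and -0.28 with the authors' table, in place of -1.46.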
